A study of Mus musculus with 3 samples.

Results

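The immunoglobulin heavy chain (Igh) locus was examined in ATAC-seq peak lists of mouse B-cell precursors transformed by BCR::ABL1. Its members were the genes on chromosome 12 that GENCODE M21 (GRCm38/mm10) types as immunoglobulin V, D, J or C genes with a symbol that starts with Igh. They comprised 142 of 55450 annotated genes, namely 113 V (variable), 17 D (diversity), 4 J (joining) and 8 C (constant) segments between chr12:113254830-116000461. All peaks from 200 kb below the lowest to 200 kb above the highest segment were taken. After overlapping peaks of the lists were merged, 154 of 50965 regions of the series lay in this window.

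The lines were pre/pro-B cells from bone marrow of C57BL/6 mice, transduced with the retroviral vector pMSCV-BCR-ABLp185-IRES-GFP, so all of them carried the p185 form of the fusion oncogene. The mice were homozygous for wild-type Cdk6 (Cdk6+/+, here WT) or for Cdk6 with the K43M exchange that inactivates the kinase (Cdk6 KM/KM, here K43M). There were 2 peak lists per genotype, namely WT replicate 2, K43M replicates 1 and 2, and a WT list with no replicate number. This unnumbered list belongs to no labelled sample, and its placement with WT is an inference. Its name holds WT, and the design leaves 1 wild-type line without a list of its own. By the design, data of 1 wild-type line came from an earlier submission and were processed again. If the unnumbered list is that line, a batch difference would fall within WT only, which was not tested. Whether a line is 1 clone, and which Igh alleles it has rearranged, is not given in the sources used here. Of 12 B-lineage marker genes, 11, 10, 11 and 9 had a peak at the promoter in WT unnumbered, WT replicate 2, K43M replicate 1 and K43M replicate 2, and sets of 4 values follow this order of the lists throughout. None of the T-lineage, myeloid, erythroid, or liver and heart markers had one in any list.

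B-cell precursors assemble a heavy chain gene by joining a D to a J segment and then a V segment to the joined DJ. The RAG recombinase cuts at recombination signal sequences, each made of a heptamer, a spacer and a nonamer beside the coding segment, and the DNA between joined segments is lost from the chromosome. The locus is read from high to low coordinates. V segments lie at the high end, followed by D and J, then by the intronic enhancer between J and Ighm, by the constant genes, each class-switched gene behind a stretch of switch repeats, and by a regulatory region beyond Igha. Distal V segments are known to need Pax5 and contraction of the locus for recombination. ATAC-seq marks DNA that Tn5 transposase can enter, and a peak list holds values only where a peak was called, so a deleted stretch and a closed stretch cannot be told apart here.

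The members with the strongest peaks were V segments, and the summits of most V peaks lay within 100 bp of the 3′ end of the segment, where the recombination signal begins. The 39 bases that follow a V segment are given for 4 of the segments with the highest ranks, to show what lies at that end. Capitals mark the first 7 and the last 9 bases, where a signal with a spacer of 23 bases has its heptamer and nonamer. All are read on the minus strand of GRCm38, 5′ to 3′, from chr12:115312127-115312165 for Ighv1-58, chr12:115802609-115802647 for Ighv1-74, chr12:113994430-113994468 for Ighv14-2 and chr12:115165738-115165776 for Ighv8-6.
Ighv1-58: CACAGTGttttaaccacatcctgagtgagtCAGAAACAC
Ighv1-74: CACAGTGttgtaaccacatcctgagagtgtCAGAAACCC
Ighv14-2: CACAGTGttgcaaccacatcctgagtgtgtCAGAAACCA
Ighv8-6: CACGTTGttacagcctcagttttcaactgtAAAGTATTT

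Ighv1-58, Ighv1-74 and Ighv14-2 carry the heptamer CACAGTG directly at the annotated end, and their spacers are alike. Over all V segments, 105 of 113 had CAC at this place and 81 had the full CACAGTG. Segments with a peak did not hold the heptamer more often than those without, since it was present in 33 of 50 with a peak and in 48 of 63 without one (66.0% against 76.2%). A match to these letters is a description of the sequence and not a measurement of cutting.

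**Figure D1:**
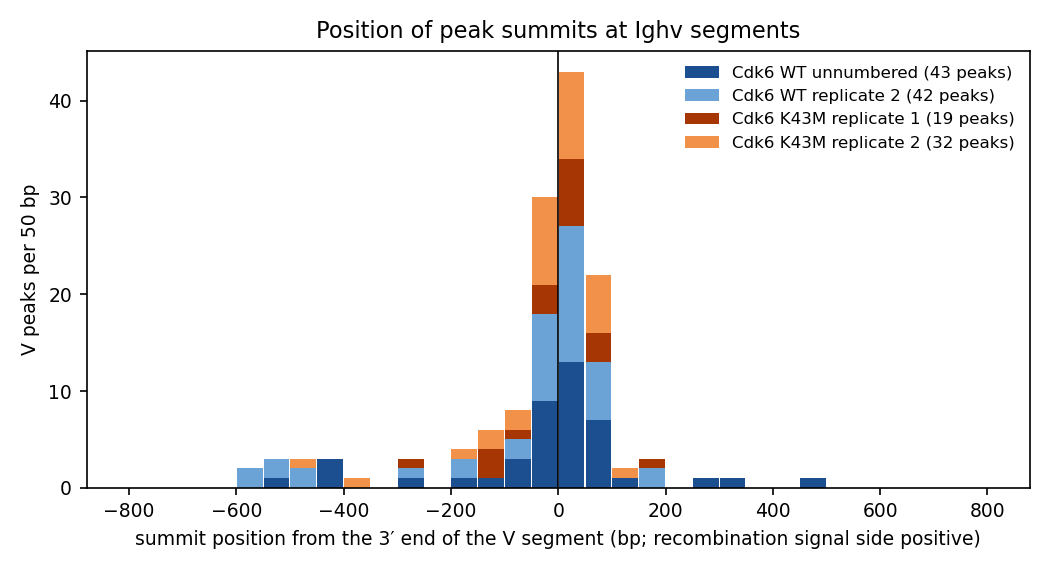
Distance of each V peak summit from the 3′ end of its segment in bp (horizontal axis, recombination signal side positive), as the number of V peaks per 50 bp (vertical axis), stacked by list. Most of the 136 peaks lie around 0, and a smaller group lies to the left, near the other end of the segments.

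Over the 136 V peaks of the lists, the summit lay a median of 3.5 bp beyond the 3′ end, with quartiles of -44.75 and 38 bp, and 103 (75.7%) lay within 100 bp of it. Summits thus fell on both sides of the end, inside the segment as well as on the signal. The medians by list were 3 and 0.5 bp in WT and 7 and 2.5 bp in K43M. The position was thus alike in both genotypes. All 17 V segments with a peak in all 4 lists had their median summit within 100 bp of the 3′ end. Ighv8 segments had it on the signal side, at a median of 65 bp over 8 segments, and Ighv1 segments, the largest family, at -4.5 bp over 27 segments.

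A smaller set of V segments had the summit at the opposite end, where the promoter lies. Of 50 V segments with a peak in any list, 7 had a median summit nearer to the 5′ than to the 3′ end, and 5 of these 7 were in the third of the V domain nearest to D. The octamer ATGCAAAT, a known element of immunoglobulin promoters bound by Oct factors, was looked for in either orientation up to 100 bp from the summits. It was found at 5 of these 7 segments, and at 2.12% of all 50867 merged regions on the main chromosomes. Summits near the 3′ end lay a median of 463 bp from the 5′ end, so their windows do not reach the promoter. The octamer itself did not set the 7 segments apart, since the 200 bp before the 5′ end held it in 90 of all 113 V segments, in 38 of the 43 with a 3′ summit, in 6 of the 7 with a 5′ summit and in 46 of the 63 with no peak. None of the 7 had a peak in all lists. The octamers of 4 of these segments, each on the strand of the gene, are shown in capitals with 11 bases on either side, to show the promoter element that lay near these summits. They lie at chr12:113579103-113579132 for Ighv5-2, chr12:113839072-113839101 for Ighv5-16, chr12:113932467-113932496 for Ighv14-1 and chr12:114462790-114462819 for Ighv8-2, on the minus strand of GRCm38.
Ighv5-2: agcaggaccacATGCAAATaagccttctct
Ighv5-16: aggagtaagacATGCAAATaagacttctct
Ighv14-1: aaagatcctgtATGCAAATcatgtgagact
Ighv8-2: ctcatgagacaATGCAAATctctccaggct

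In these 4 segments the octamer lay 71 to 124 bp before the annotated 5′ end. Ighv1-82, the fifth segment with an octamer, had 2 neighbouring peaks, and the heptamer CACAGTG was found at both of its summits as well. The summit lay at -37 bp from the 3′ end in WT unnumbered and at -504 bp in WT replicate 2. Its place in this set rests on their median of -270.5 bp, and only the peak of WT replicate 2 had the octamer. Ighv2-3 and Ighv9-3 had a 5′ summit with no octamer in the searched window.

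**Figure D2:**
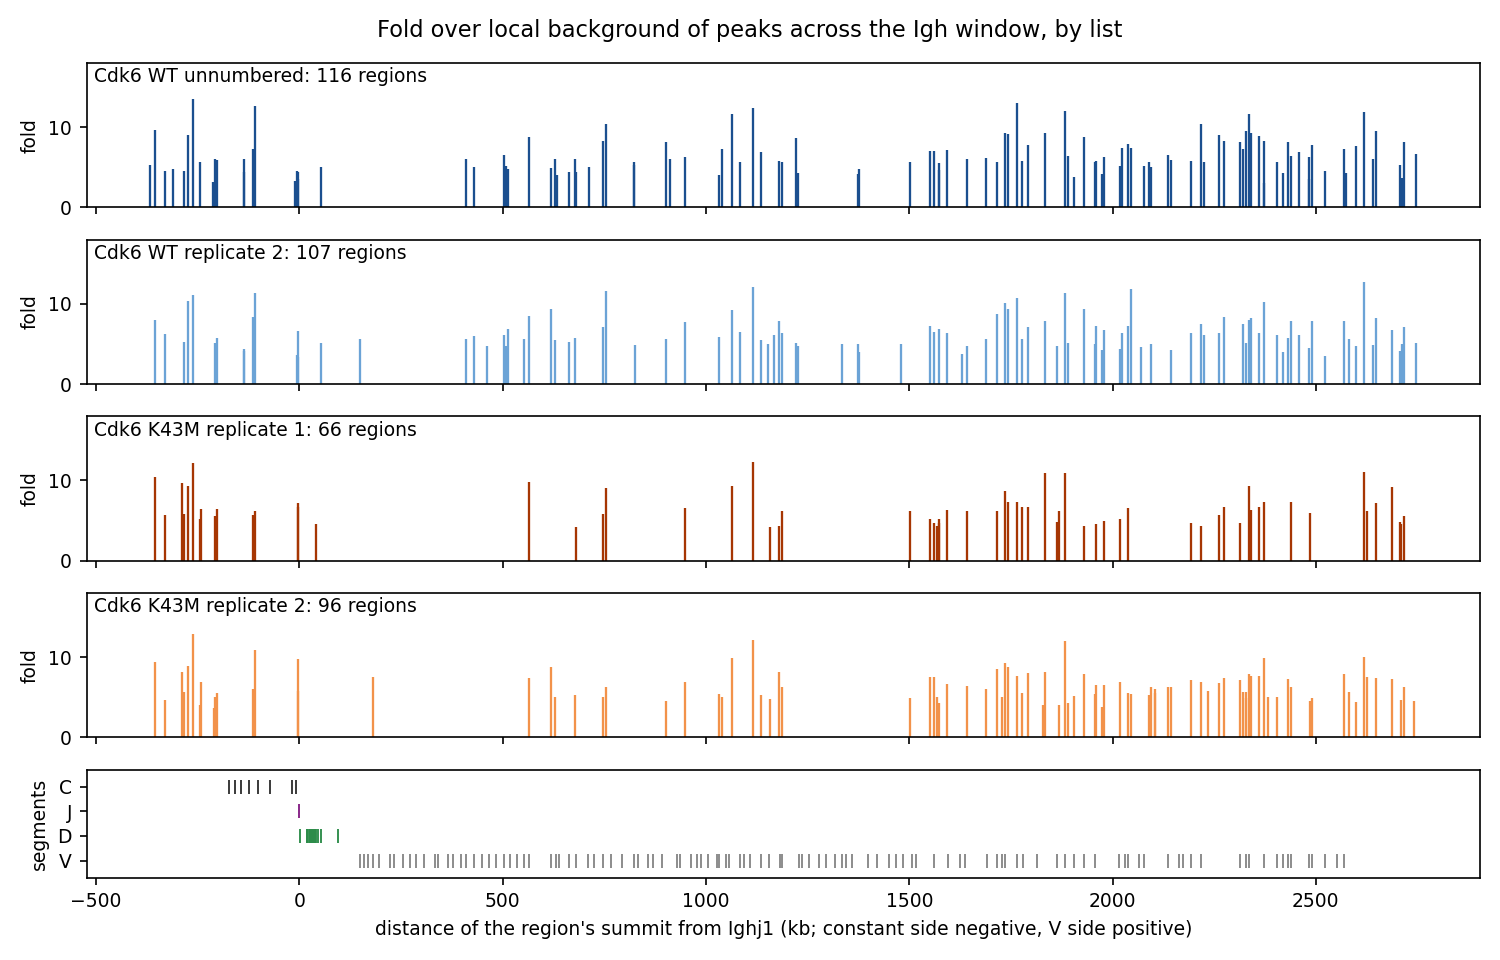
Fold over local background of each merged region (vertical axes, 1 panel per list) against distance from Ighj1 in kb (horizontal axis), with the V, D, J and C segments as ticks in the lowest panel. Peaks are dense at the distal V end in all lists, the stretch from D into the proximal V segments is nearly bare, and K43M replicate 1 has the fewest regions with 66.

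Peaks were most frequent at the V segments farthest from D in every list. The V domain was split into 3 stretches of equal length, proximal, middle and distal. Of 31 distal V segments, 22 and 20 had a peak in the WT lists and 11 and 18 in the K43M lists. Of 43 proximal V segments, 11, 10, 3 and 5 had one. Of 39 middle V segments, 10, 12, 5 and 9 had one. The middle shares were 25.6%, 30.8%, 12.8% and 23.1%, against proximal shares of 25.6%, 23.3%, 6.98% and 11.6%. They were thus level in WT unnumbered and higher than the proximal shares in the other lists. A segment counted as having a peak when a peak overlapped it or the 500 bp on either side.

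Peaks were also unevenly spread over the V families. Of 9 Ighv8 segments, 7, 7, 6 and 7 had a peak, and this family was nearly as well covered in K43M replicate 1 as in the other lists. Of 53 Ighv1 segments, 24, 24, 10 and 19 had one. All 4 Ighv14 segments had one in both WT lists, against 2 and 3 in the K43M lists. The proximal families Ighv5 and Ighv2 were sparse, with 2, 3, 0 and 0 of 10 Ighv5 segments and 0, 0, 0 and 1 of 9 Ighv2 segments. Other proximal families were covered more often, with 3, 1, 1 and 0 of 4 Ighv9 segments and 1, 2, 0 and 1 of 2 Ighv11 segments. No peak lay at any of the 5 Ighv6 and 4 Ighv7 segments. Among distal V segments other than Ighv8, 18, 16, 7 and 14 of 26 had a peak, so the distal share did not rest on Ighv8 alone.

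**Figure D3:**
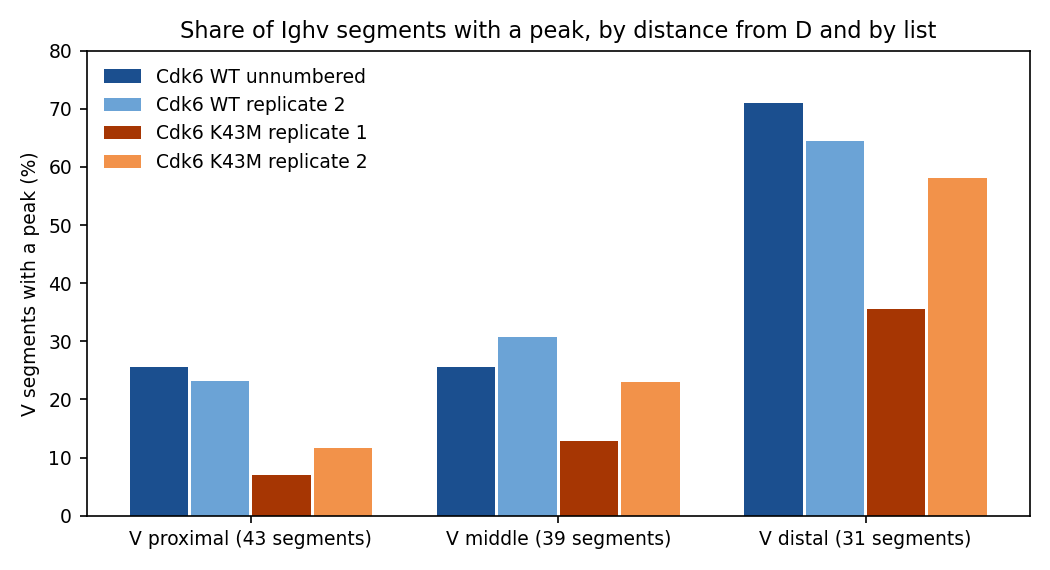
Share of V segments with a peak in percent (vertical axis, from 0) in the proximal, middle and distal stretches of the V domain (horizontal axis), with 1 bar per list. The distal bars are the highest in each list, from 35.5% in K43M replicate 1 to 71.0% in WT unnumbered.

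The authors removed reads with several or uncertain positions, so the distinctness of the segments is given beside these counts. The share of 50-base words within 100 bp of the V 3′ end that occur once in the window had a median of 60.2% for segments with a peak and 89.5% for segments without one. By stretch, the medians with and without a peak were 85.2% and 96.7% in the proximal, 86.2% and 77.3% in the middle and 53.3% and 53.0% in the distal stretch, so the direction was not the same in all 3. The part of sequence copies in the counts was not tested.

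The 10 best-ranked V segments were chosen for a peak in all lists and a high mean rank over them, which favours like values, and some of them still varied between lists. Fold is the authors' ratio of the summit signal to the background, and a percentile is the share of the list's peaks with the same or a lower q-value score. Ighv1-58 (chr12:115312166-115312599) had folds of 11.99 and 11.4 in the WT lists and of 10.98 and 12.1 in the K43M lists. It stood between the percentiles 70.4 and 80.4 of the lists, and neither genotype was apart. Ighv8-6 had folds of 9.26, 10.1, 8.70 and 9.21, a narrow range. Ighv1-74 had 8.33, 10.2, 7.34 and 9.84, with K43M replicate 1 lowest. Ighv14-2, the best-ranked proximal V segment, had 8.72, 8.43, 9.85 and 7.45, with the WT lists between the K43M lists.

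Ighv1-54 was the member of these 10 in which the genotypes lay furthest apart. Its fold was 13.0 and 10.8 in the WT lists against 7.26 and 7.64 in the K43M lists, at percentiles from 43.7 to 83.1, with 48 and 35 against 16 and 23 fragments over the summit. It was singled out after its values were seen. Ighv8-13 had folds of 11.7, 7.97, 9.26 and 7.84. Ighv8-4, Ighv1-12, Ighv1-78 and Ighv8-9 stood between 5.52 and 7.87 in all lists. Ighv8-6 and Ighv8-9 were the other segments of the 10 with a higher fold in both WT lists than in both K43M lists, and for Ighv8-6 the nearest values were 9.26 and 9.21.

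**Figure D4:**
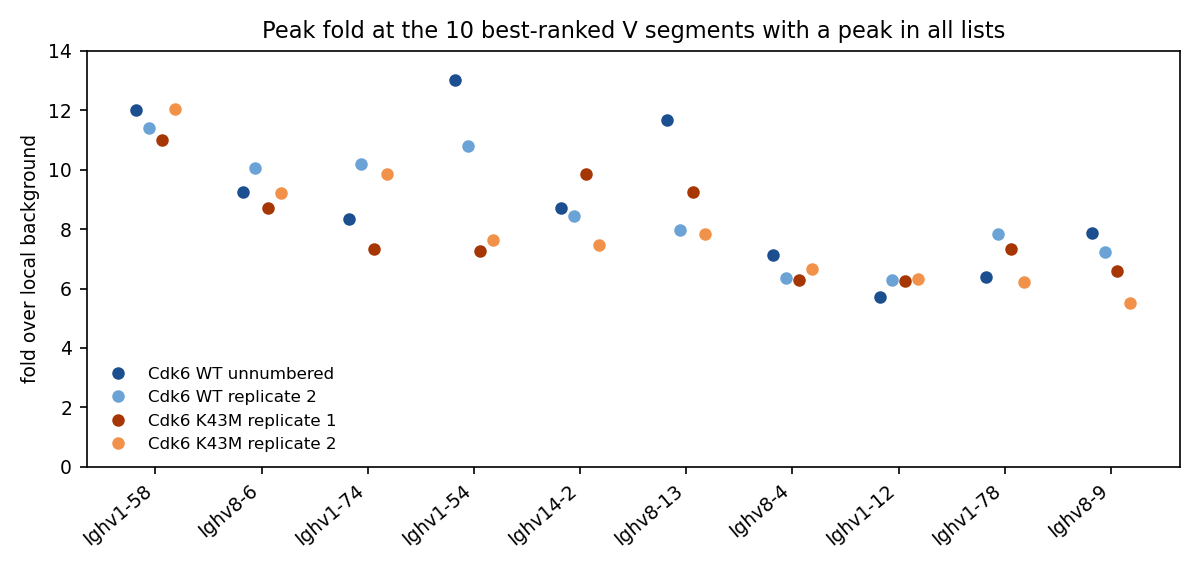
Fold over local background (vertical axis) at the 10 best-ranked V segments with a peak in all 4 lists (horizontal axis), with 1 point per list. The points of the genotypes mix for most segments, and the widest gap between genotypes is at Ighv1-54, with 10.8 to 13.0 in WT against 7.26 to 7.64 in K43M.

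V segments with a peak were more numerous in both WT lists than in either K43M list. A peak was present at 43 and 42 V segments in the WT lists, at 19 in K43M replicate 1 and at 32 in K43M replicate 2, a difference of 17 between the means. The groups did not overlap, and the exact two-sided permutation test over the 6 assignments of the lists gave p = 0.333, the smallest value this design allows. Without K43M replicate 1, the list with the fewest, the difference was 10.5. A peak lay at 17 V segments in all lists, at 50 in any list and at 63 in none. Another 11 had one in all lists but K43M replicate 1. Of all merged regions in the series, 62.4% and 64.3% had a peak in the WT lists and 74.1% and 65.0% in the K43M lists.

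No V segment had a peak in both K43M lists and neither WT list, and 9 had one in both WT lists and neither K43M list. Among all merged regions of the series, 7.64% were in the K43M lists only and 4.51% in the WT lists only. These 9 were Ighv14-1, Ighv5-16, Ighv5-17 and Ighv9-1 in the proximal stretch, Ighv1-5 and Ighv1-15 in the middle, and Ighv1-76, Ighv1-80 and Ighv1-82 in the distal stretch. All stood below the 50th percentile of their lists. Ighv14-1, the best of them, had folds of 6.50 and 6.09 with 14 and 12 fragments over the summit, at the percentiles 31.0 and 28.0 of the WT lists. Ighv5-16 had folds of 6.07 and 5.62. Ighv1-82, the lowest ranked, had folds of 4.58 and 3.54 and stood at the percentiles 8.41 and 0.13. Its peaks in the WT lists did not overlap, so these lists shared no merged region there.

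The V domain also held peaks away from V segments. Of its 116 merged regions, 54 lay at a V segment and 62 did not, with 14 of the latter at a V pseudogene. Regions away from V segments were in all lists about as often as those at V segments, with 17 of 62 (27.4%) against 17 of 54 (31.5%), both below the 41.2% of all merged regions in the series. The strongest region of the whole V domain was of this kind. It lay at chr12:114544885-114545778 in the middle stretch, and its folds were 12.4, 12.1, 12.4 and 12.1, with no gap between the genotypes. A near copy at chr12:114493528-114494467, with 97.9% identity around the summit, had folds of 11.7, 9.24, 9.35 and 9.94.

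Summit sequences of the V domain were compared all against all, and regions were linked where an alignment reached 200 bases at 80% identity. The largest group held 41 regions at Ighv1 and Ighv14 segments and Ighv1 pseudogenes. A group of 9 held Ighv8 segments and pseudogenes, with 1 region at Gm37511. A group of 14 lay entirely away from V segments, between the summits at 115071631 and 115812795 of chromosome 12, with identities of up to 99.1% and a median of 90.0%. It is described next because the rule that chose the members did not use it.

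These 14 repeat copies accompanied the Ighv8 segments. For 11 of them, the summit lay 3.63 to 7.55 kb above an Ighv8 gene or pseudogene, that is, upstream of it. The remaining 3 lay 55.3, 56.7 and 113 kb from the nearest annotated one on that side. The E-box CAGGTG, which E2A and related factors bind, was found within 100 bp of the summit on either strand in 11 of 14 copies, against 16.3% of all merged regions. The copies were grouped because their sequences are alike, so they are not independent observations of the E-box. Neither the octamer nor the CTCF pattern was found in any of them. No searched motif contains another. The copies above Ighv8-6, above the pseudogene Ighv8-7 and between Ighv8-12 and Ighv8-13 are shown with the E-box in capitals, to make their shared core visible. They lie at chr12:115171849-115171969, chr12:115262563-115262683 and chr12:115703661-115703781, minus strand, GRCm38.
Copy above Ighv8-6: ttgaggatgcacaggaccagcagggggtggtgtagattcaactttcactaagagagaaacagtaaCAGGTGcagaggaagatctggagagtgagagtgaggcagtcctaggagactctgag
Copy above Ighv8-7: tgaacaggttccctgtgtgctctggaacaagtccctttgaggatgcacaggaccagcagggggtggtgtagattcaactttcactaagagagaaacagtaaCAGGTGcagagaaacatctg
Copy between Ighv8-12 and Ighv8-13: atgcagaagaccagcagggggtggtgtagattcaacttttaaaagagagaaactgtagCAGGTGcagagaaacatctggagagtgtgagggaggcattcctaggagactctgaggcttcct

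The repeat copies were peaks in both genotypes. Of the 14, 11, 11, 8 and 12 had a peak, and 7 were in all lists. The copy above Ighv8-6 had folds of 9.14, 9.35, 7.26 and 8.82. The copy above Ighv8-7 had 9.32, 7.84, 10.96 and 8.13, with K43M replicate 1 highest. The copy between Ighv8-12 and Ighv8-13 had 8.24, 8.41, 6.66 and 7.35. Pax5-activated intergenic repeats are known upstream of distal V segments of this family, and whether these copies are those elements was not tested.

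Exact matches to a binding site pattern of CTCF, which helps to fold the locus into loops, were distributed differently. They were found at 8 of 62 regions away from V segments and at 1 of 54 regions at V segments, against 3.98% of all merged regions. The match at a V segment was at Ighv5-17, 1 of the proximal segments with a peak in the WT lists only. None of the 34 V domain regions in all lists held an exact match, and near matches were not counted. ETS sites, searched as AGGAAGT, were found at 9 of 62 regions away from V segments and at 0 of 54 at V segments, against 16.1% of all merged regions. The nonamer ACAAAAACC was found at 1 region of the V domain, against 0.301% of all merged regions, and the heptamer CACAGTG at 30 of 54 regions at V segments and 17 of 62 away from them, against 7.07%.

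From the D segments into the proximal V segments the locus was almost bare of peaks. No peak lay at any of the 4 J segments or in the 53.2 kb between D and V in any list. Among 17 D segments, only Ighd1-1 had a peak, in both WT lists and in neither K43M list. Its fold was 5.0 and 5.15, with 12 and 10 fragments over the summit, at the percentiles 11.5 and 13.7. K43M replicate 1 had another weak D peak away from any segment, with a fold of 4.63 and 9 fragments. Of the 5 V segments nearest to D, Ighv5-2 had a peak in WT replicate 2 only, with a fold of 5.62, and Ighv2-3 in K43M replicate 2 only, with a fold of 7.58. Ighv2-2, Ighv5-4 and Ighv5-6 had none.

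The longest stretch without a peak lay here in every list. It spanned 356 and 260 kb in the WT lists and 522 and 383 kb in the K43M lists. The WT stretches ended near Ighv5-16, and both K43M stretches ended at Ighv14-2. Loss of this DNA from rearranged alleles and absence of open chromatin cannot be told apart in peak lists.

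The intron between J and Ighm carried the intronic enhancer peak in all 4 lists. The stretch from Ighm to J held 3 regions in 5.78 kb, which is 3 peaks in each WT list and 2 in each K43M list. The strongest lay at chr12:113427309-113427712. The 201 bases around its summit, chr12:113427432-113427632 on the minus strand of GRCm38, are given with E-boxes (CACCTG, the reverse of CAGGTG) in capitals, since this is the element that drives the locus in B-cell precursors.
Intronic region: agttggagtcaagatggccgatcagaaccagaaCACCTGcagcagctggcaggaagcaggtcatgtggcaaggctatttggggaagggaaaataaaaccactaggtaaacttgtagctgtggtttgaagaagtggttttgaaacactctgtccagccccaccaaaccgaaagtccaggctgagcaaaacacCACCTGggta

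At this region the fold and the signal ran in opposite directions. The fold was 4.39 and 6.58 in the WT lists and 7.14 and 9.71 in the K43M lists, so it was higher in both K43M lists. The fragments over the summit were 53, 52, 29 and 39, so they were fewer in both K43M lists. The local background, as Tn5 ends per 10 kb, was 565, 353, 160 and 156. The lower fold of the WT lists therefore stood beside a higher background and not beside a smaller summit. The 10 kb of the background also cover the neighbouring regions of this intron, so peak signal enters it. Among these is chr12:113424317-113425298, which had a peak in the WT lists only.

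Relative to the median of autosomal regions in the same list, the background at the 2 regions of this intron in all lists was 1.66 and 1.12 log2 units in the WT lists and -0.10 and 0.10 in the K43M lists. The genotypes differed by 1.39 log2 units, with an exact permutation p = 0.333, the smallest that 4 lists allow. The differences at the 2 regions stood at the percentiles 99.88 and 99.86 of those at all 21012 regions shared by the lists. The regions lie at chr12:113426654-113427036 and chr12:113427309-113427712, so their 10 kb background windows overlap for the most part. The 2 values are therefore not independent observations. The scaled summit signal differed less, with 0.31 and 0.06 in WT and -0.44 and -0.05 in K43M.

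The third region of this stretch, at chr12:113424317-113425298 between the enhancer and Ighm, was in both WT lists and in neither K43M list. Its fold was 4.49 and 3.66, with 61 and 33 fragments over the summit, on a background of 641 and 415 ends per 10 kb. It lies in switch repeats. The region held 135 copies of GAGCT on the strand of the gene, and its summit window held 30 on both strands, more than any other of the 50867 merged regions on the main chromosomes, of which 42.2% held GAGCT at all. Of its 50-base words, 56.5% occurred once in the window, so reads there can be misplaced or lost.

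Among the constant genes, peaks lay between the genes more than on them. Ighm, the constant region of IgM, was the only one of 8 with a peak at the gene, in WT unnumbered with a fold of 3.33 at the 14th percentile. No list had a peak at Ighd, Ighg3, Ighg1, Ighg2b, Ighg2c, Ighe or Igha. The strongest region of this stretch lay between Ighg2b and Ighg1 at chr12:113320747-113321762. Its fold was 12.7 and 11.3 in the WT lists and 6.18 and 10.9 in the K43M lists. The fragments over the summit were 70, 48, 12 and 27, and both K43M lists were below both WT lists.

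The second region in all lists, at chr12:113314532-113315085, had folds of 7.32, 8.33, 5.71 and 5.97, with 23, 30, 11 and 15 fragments. At these 2 regions the scaled background was -0.16 and -0.14 in the WT lists against -1.63 and -0.85 in the K43M lists, a difference of 1.09 log2 units (exact permutation p = 0.333). Both values of K43M replicate 1 were at the genome-wide background of the caller, so its true level may be lower. The regions at chr12:113293777-113294449 and chr12:113294562-113295020 between Ighg2c and Ighg2b were in the WT lists only, with folds of 4.37 and 4.17, and of 6.09 and 4.41.

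The flank beyond Igha, where the 3′ regulatory region lies, held 7 regions in all lists, and the 2 nearest to Igha are described here. The region at chr12:113222079-113223088 had folds of 6.04, 5.17, 5.58 and 5.02, and that at chr12:113228079-113228720, which holds an octamer, had 5.87, 5.77, 6.44 and 5.47. The fragments over the summit were 75, 57, 43 and 48 at the first and 36, 29, 24 and 21 at the second, fewer in both K43M lists. Relative to the autosomal median the summit signal was 0.94, 0.66, 0.18 and 0.63 log2 units at the first and -0.12, -0.31, -0.66 and -0.56 at the second. As at the enhancer, the folds did not show this order. Over the 7 regions of this flank, the scaled summit signal was lower in both K43M lists than in both WT lists at 4 (57.1%). Of all shared regions, 22.3% were lower in this way. The signal was higher in both K43M lists at 1 of the 7. Its median over the 7 regions was -0.12, 0.08, -0.04 and 0.57, so neither K43M list lay below both WT lists. The flank below Igha held 11, 7, 13 and 13 peaks and 0 regions in the WT lists only, and its 2 regions in the K43M lists only lay at Crip2 and Tmem121. In this flank the K43M lists did not have fewer peaks.

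Over the whole window there were 122 and 112 peaks in the WT lists and 73 and 103 in the K43M lists. Per 10000 peaks of each list these were 36.9, 32.7, 18.7 and 29.6. The genotypes differed by 10.6 per 10000, with a range of 4.22 between the WT lists and of 10.9 between the K43M lists. The groups did not overlap (exact two-sided permutation p = 0.333, the smallest possible). With only peaks of a −log10 q-value of at least 5 they did overlap, with a difference of 9.01 (exact permutation p = 0.667). Without K43M replicate 1 the difference was 5.18, and without K43M replicate 2 it was 16.1. The gap between the K43M lists was thus as wide as the gap between the genotypes.

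Of the 154 regions, 48 (31.2%) were in all 4 lists, against the 41.2% of all merged regions. Without K43M replicate 1, 68 regions of the window were in all remaining lists, so the low count rested largely on that list. The window held 22 regions (14.3%) in both WT lists and neither K43M list, against 4.51% of all merged regions. It held 7 (4.55%) in both K43M lists and neither WT list, against 7.64%. Regions of 1 list made up 43 (27.9%), against 28.7%. On chromosome 12 outside the window, 112 of 1901 regions (5.89%) were in the WT lists only and 118 (6.21%) in the K43M lists only. Of the 22, 15 lay in the V domain, 4 among the D, J and constant stretches and 3 in the flank above. Without K43M replicate 1, regions in the K43M list only and in neither WT list numbered 19, and without K43M replicate 2, regions in both WT lists and not in K43M replicate 1 numbered 42. With WT unnumbered left out, 39 regions were in the WT list only, and with WT replicate 2 left out, 37.

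K43M replicate 1 lacked the most regions. In the window, 20 regions had a peak in the other 3 lists and not in this one, against 1.38% of all merged regions (13.0% of the window), and 19 of the 20 lay in the V domain. The corresponding counts were 1 for WT unnumbered, against 4.17% of all merged regions, 2 for WT replicate 2, against 2.68%, and 1 for K43M replicate 2, against 3.74%. This set was looked at after the values were seen.

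The local background showed the same list apart from the others over the V domain. At its 34 regions in all lists, the median background relative to autosomal regions was -0.41 and -0.78 in the WT lists, against -1.35 for K43M replicate 1 and -0.72 for K43M replicate 2. K43M replicate 2 lay between the WT lists. The genotypes differed by 0.44 log2 units (exact permutation p = 0.667), and by 0.18 without K43M replicate 1. The summit signal followed, with medians of 29.5, 23, 14.5 and 20 fragments. At 12 of the 34 regions (35.3%) the scaled background was lower in both K43M lists than in both WT lists. This share was 27.0% of all shared regions and 37.3% of those on chromosome 12 outside the window. For the scaled summit signal it was also 12 of 34 (35.3%), against 22.3% of all shared regions and 30.5% on chromosome 12 outside the window. The V domain thus did not stand apart from the rest of its chromosome in the background share.

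**Figure D5:**
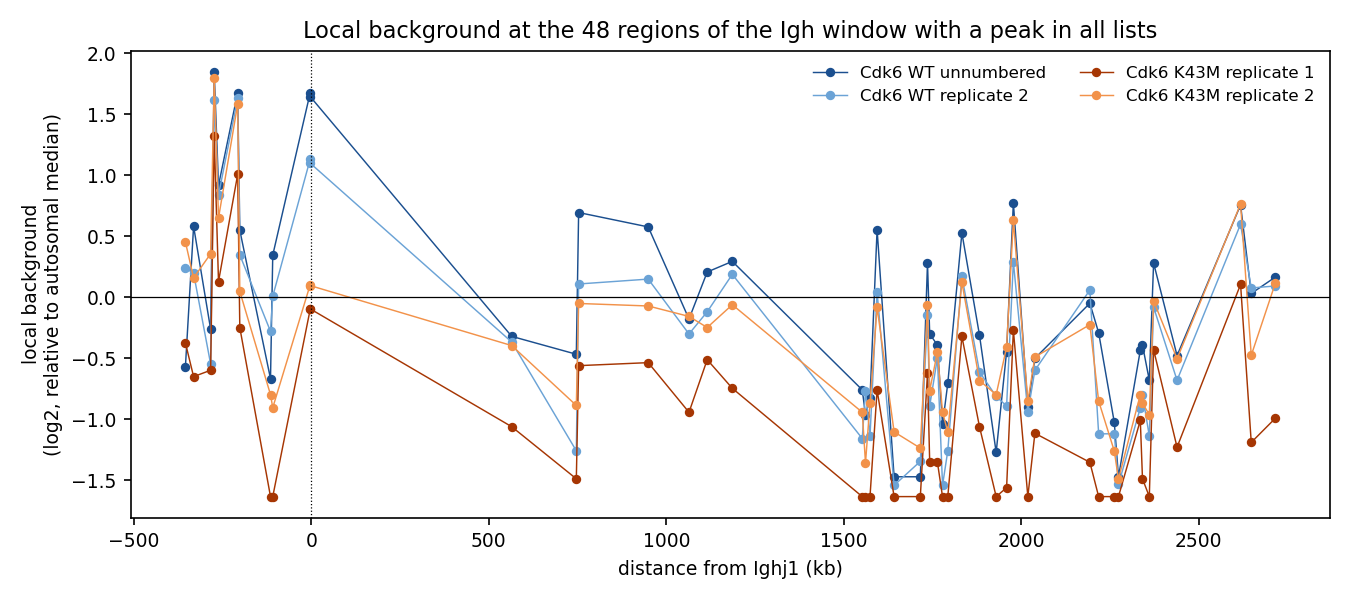
Local background at the 48 regions of the window with a peak in all 4 lists (vertical axis, log2 relative to the autosomal median of the list) against distance from Ighj1 in kb (horizontal axis), 1 line per list. K43M replicate 1 is lowest over the V domain, with K43M replicate 2 among the WT lists, while at Ighj1 both K43M lists lie below both WT lists.

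The rest of chromosome 12 was not level either. Outside the window the median scaled background was 0.01 in both WT lists, -0.29 in K43M replicate 1 and -0.18 in K43M replicate 2. In the 10 Mb below the window it was 0.50, 0.40, 0.10 and 0.58, so K43M replicate 1 was low and K43M replicate 2 was not. K43M replicate 2 was low further down the chromosome, at -0.58 to -0.70 between 50 and 80 Mb. Scaled to chromosome 12 outside the window, the V domain difference was 0.20, and over all peaks of the V domain it was 0.17 (exact permutation p = 0.667 for both). Scaled to the 10 Mb below the window, a choice made after seeing the data, it was 0.33 (exact permutation p = 0.333). A lower copy number and a lower accessibility of this stretch cannot be told apart in these lists. At 13 of the 34 V domain regions the background of K43M replicate 1 was at the genome-wide level of the caller, against 3, 2 and 0 in WT unnumbered, WT replicate 2 and K43M replicate 2, so the value for K43M replicate 1 is an upper limit there.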

How the data were processed

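ATAC-seq peak lists of 4 mouse lines (2 WT, 2 K43M) were analysed. Per the study's methods, the authors trimmed reads with Trimmomatic 0.36, aligned them to mm10 with bwa-mem 0.7.15, discarded blacklist regions and multiply or poorly mapped reads (samtools 1.3.1), and called peaks with MACS2 2.1.0 (no model, shifted cut sites, extension 200). No control library and no pooling is named. The deposited lists give each peak's fold enrichment as a ratio over the local background, and −log10 p-values and q-values. Read totals are not in these lists. The number of extended Tn5 ends over the summit, called fragments in the text, and the local background were computed from the fold and −log10 p of each peak. This gave a whole number for 100% of peaks in every list, and the genome-wide background was 48.4 to 65.3 Tn5 ends per 10 kb. Differences were set against the spread between these lines, and each line was 1 list.

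Peaks of the 4 lists were merged where they overlapped by 1 bp. Segments came from GENCODE M21, a later release than the one the study used, and sequences from the RefSeq GRCm38 assembly. A peak was placed at a segment within 500 bp, and V pseudogenes (70) were not members. Named segments were all J and constant segments, D segments with a peak, the 5 V segments nearest to D, the 10 V segments in all lists with the highest mean percentile, up to 10 V segments strictly in 1 genotype, and the top region per stretch. Motifs were searched within 100 bp of summits, and BLAST 2.17.0 linked similar summit windows of 501 bases. Groups were compared by exact permutation over the lists, with 6 assignments. Calculations were tested on simulated data. Alternatives were equal list sizes, stricter q-values, other margins and overlaps, no flank, added pseudogenes, other scalings and leaving out each list. Members and lists were chosen with earlier results of these data known.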

Additional observations from a re-analysis of the deposited data

How the results depend on the processing

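The genotype differences in the window's peak share, the number of V segments with a peak and the V domain background kept their direction under every alternative tried, and no result reversed. Regions in all lists went from 48 to 38 without the flanks and to 68 without K43M replicate 1. The genotypes no longer stood apart in the peak share at a −log10 q-value of at least 5 (9.01, exact permutation p = 0.667). Counts of regions in 1 genotype only were less stable. Regions in the WT lists only fell from 22 to 11 when the −log10 q-value had to reach 5, and ranged from 23 to 42 when each list was left out in turn, where fewer lists had to hold or to lack the peak. Regions in the K43M lists only went from 7 to 4 with equal list sizes, to 4 with the stricter q-value and to 3 without the flanks, and ranged from 8 to 19 when each list was left out. The V domain background difference ranged from 0.18 to 0.75 over the left-out lists, was 0.20 when scaled to chromosome 12 outside the window and 0.17 over all peaks of the V domain, and scaling it to the 10 Mb below the window or using the summit signal in its place, both chosen after seeing the data, gave 0.33 and 0.49. No paired analysis was possible because the genotypes share fewer than 2 replicate numbers. With 4 lists no exact permutation test can fall below p = 0.333, a region just under the caller's cut-off counts as absent, and values exist only at peaks.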
